A study of Homo sapiens with 27 samples.

Results

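CD9 and 8 other tetraspanins (CD63, CD81, CD82, CD151, TSPAN3, TSPAN4, TSPAN6 and TSPAN14) were followed through 27 RNA sequencing libraries of teloHAEC, a line of human aortic endothelial cells immortalised with telomerase. They are 9 of the 14008 genes in the count table, and 9 of the 26 tetraspanin genes it lists. They were selected on measured values of these data: CD9 stood low in the deletion at C2orf43, the earlier name of LDAH, and the other 8 are relatives measured in the same table. For that reason every value of the LDAH deletion against its controls is given below as a description, without a test.

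Tetraspanins are small proteins that pass through the membrane repeatedly and bind each other and a set of partners, among them integrins, immunoglobulin-domain proteins and the sheddase ADAM10, to form patches in the membrane. CD9, CD63 and CD81 are the usual surface markers of extracellular vesicles. In endothelium, CD9 and CD151 gather the adhesion receptors ICAM1 and VCAM1 where leukocytes dock, and CD63 is a membrane protein of the storage granules that hold von Willebrand factor and P-selectin.

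All 6 groups received Cas9 ribonucleoprotein by electroporation, 150000 cells per replicate, and RNA was taken 2 days later. The labels name no selection of clones, and the share of edited cells was not analysed here. In the LDAH deletion (4 libraries, set B) and the SMAD3 deletion (4 libraries, set A), guide RNAs flanked a candidate enhancer of the named gene. LDAH encodes a hydrolase of lipid droplets and SMAD3 a transcription factor of TGF-beta signalling. Negative controls (4 libraries in set A and 7 in set B) carried a guide with no target, and HPRT-targeted controls (4 libraries in each set) a guide that cuts HPRT1, a purine salvage gene, so that they share genome cleavage with the deletions. The labels do not tell separate cultures from separate electroporations. The p-values therefore set differences against the spread between these libraries, which may not be the spread between separate cultures.

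The libraries of set A held 4.76 to 7.75 M counts each (M, mega) and those of set B 3.43 to 6.41 M. LDAH stood at 7.32 ± 3.44 CPM (counts per 1e6, scaled by TMM factors; SD, n = 4) in its deletion, from 9 to 61 reads, and the 7 negative control libraries stood at 12.5 ± 3.61 CPM. The lowest, 2.80 CPM from 9 reads, was replicate 4. Replicates 1 to 3, at 10.9, 8.81 and 6.81 CPM, lay within or just below the control range of 7.96 to 18.8 CPM. SMAD3 stood at 94.8 ± 15.1 CPM in its deletion and 128 ± 9.21 CPM in the negative control (n = 4 each). HPRT1 stood at 32.4 ± 6.57 and 40.9 ± 8.12 CPM in the HPRT-targeted and negative control libraries of set A, and at 43.2 ± 13.2 and 50.9 ± 21.9 CPM in those of set B. All 18 endothelial markers were in the table, 15 of them at a mean of at least 10 CPM over the 27 libraries. EMCN (5.82 CPM), VWF (2.83 CPM) and SOX18 (2.74 CPM) were lower. Of 13 blood and platelet markers 1 was in the table, at 0 to 4.04 CPM. KRT8, KRT18 and KRT19 were the 3 of 9 epithelial markers in the table, and EPCAM and CDH1 were not among them; the 3 keratins together stood at 770 to 1571 CPM, the highest in the LDAH deletion. Of 12 smooth muscle and fibroblast markers 2 were listed, together at 22.6 to 65.6 CPM.

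By correlation over all genes, 7 libraries stand apart. Set B holds 5 of them, namely HPRT-targeted replicates 2 and 4, LDAH deletion replicate 4, and replicates 6 and 7 of the negative control. The 2 of set A are HPRT-targeted replicate 3 and SMAD3 deletion replicate 4. Their median correlation with the other libraries was 0.856 to 0.877 in set B and 0.925 to 0.960 in set A, against 0.926 to 0.952 and 0.977 to 0.982 for the rest. The share of counts in ribosomal protein genes was 14.9% to 17.3% in the 5 of set B and 9.35% to 11.3% in the other 10. The 7 were known from earlier results of these data. The main values are also given without them, and levels by library include all 27.

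CD9 (ENSG00000010278; chromosome 12, 6199715 to 6238271, GRCh38) organises adhesion receptors, membrane fusion and vesicle surfaces. In the 4 LDAH deletion libraries it stood at 91.4, 74.5, 33.4 and 414.4 CPM. The 7 negative control libraries of set B ranged from 180.4 to 639.4 CPM with a median of 336.5. The 4 HPRT-targeted libraries of set B stood at 279.5, 294.1, 326.9 and 351.6 CPM. Replicates 1 to 3 of the deletion thus lay below every control library of the set, and replicate 4, one of the 7 libraries that stand apart, lay inside the control range, so the groups overlap. The ribosomal protein share was 10.5%, 10.4% and 9.35% in replicates 1 to 3, against 10.3% to 11.3% in the control libraries of set B that do not stand apart, and its part in the CD9 level was not tested. The numbers in the labels run from 50 to 54 for the LDAH deletion and from 55 to 67 for its controls, so handling that follows them cannot be told apart from the deletion. In bulk RNA, fewer cells of a kind and less RNA per cell cannot be told apart.

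For CD9 the LDAH deletion gave a log2 fold change of -1.24 ± 0.51 (SE) against the negative control, with a 95% interval from -2.31 to -0.17, and -1.03 ± 0.55 against the HPRT-targeted libraries, from -2.19 to 0.12. Among the 11769 genes fitted in set B, 2.57% had a change of larger size against the negative control. Without LDAH deletion replicate 4 the change was -2.44, and without replicate 3 it was -0.91. Without the 7 libraries that stand apart, CD9 averaged 66.4 ± 29.8 CPM in the deletion (n = 3), 296 ± 79.5 CPM in the negative control (n = 5) and 303.2 ± 33.5 CPM in the HPRT-targeted libraries (n = 2), and the changes were -2.16 ± 0.24 and -2.20 ± 0.28. Both comparisons use the same deletion libraries.

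With all libraries, 0% of genes passed an adjusted p of 0.05 in edgeR in either LDAH deletion comparison, while DESeq2 called 14 genes against the negative control, none of them among the 9. Without the 7 libraries, 1.74% of 12153 genes passed against the negative control (191 lower and 21 higher) and 0.634% against the HPRT-targeted libraries (76 lower and 1 higher). CD9 was the 1 of the 9 tetraspanins among them in each comparison, and since the choice of genes rests on this contrast nothing is read from that.

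**Figure D1:**
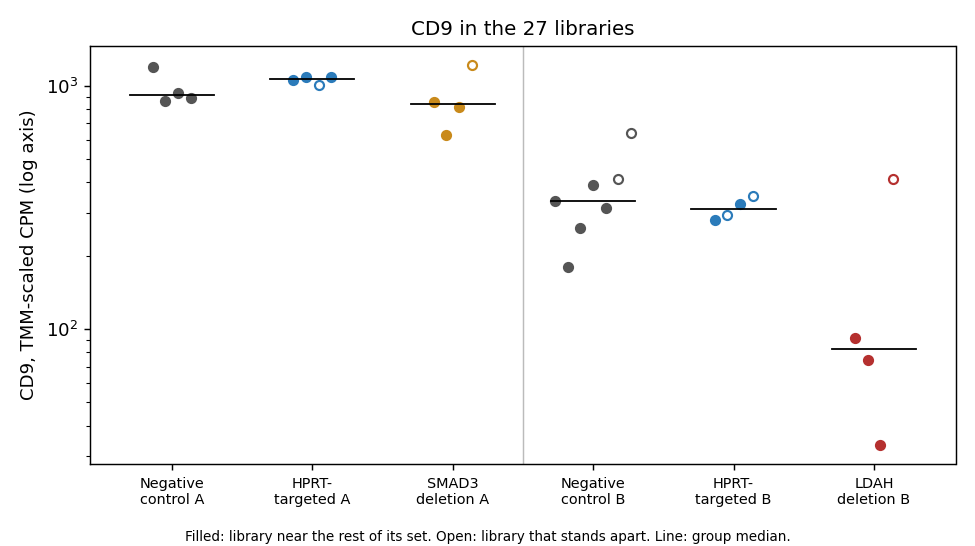
CD9 in TMM-scaled CPM (log axis) in each of the 27 libraries by group, sets A and B to the left and right of the vertical line; open circles are the 7 libraries that stand apart and black lines are group medians. LDAH deletion replicates 1 to 3 sit between 33.4 and 91.4 CPM, below all other libraries, and replicate 4 sits at 414.4 CPM.

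CD63 and CD81, the other vesicle markers, stayed near the control range in LDAH deletion replicates 1 to 3. CD63 (ENSG00000135404; chromosome 12, 55725323 to 55729707), the endosomal and granule member, stood at 1196, 1089, 1003 and 2309 CPM in the LDAH deletion. The negative control of set B ranged from 1036 to 1928 CPM with a median of 1125, and the HPRT-targeted libraries stood at 1214, 1535, 1185 and 2208 CPM. The 5 highest CD63 values of set B, from 1535 CPM up, are those of the 5 libraries that stand apart, and the rest lay at 1003 to 1214 CPM whatever the group. Against the negative control the deletion had a log2 fold change of 0.07 ± 0.26, and -0.02 ± 0.09 without the 7 libraries.

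CD81 (ENSG00000110651; chromosome 11, 2376177 to 2397419), a partner of immunoglobulin-domain proteins and a receptor component in B cells, went the other way in the same libraries. It stood at 448.5, 449.4, 507 and 256 CPM in the LDAH deletion, against a negative control range of 201.2 to 444.6 CPM with a median of 402. The HPRT-targeted libraries stood at 396.7, 209.8, 389.6 and 272.9 CPM. Deletion replicates 1 to 3 were the 3 highest of set B, with replicate 1 at 448.5 CPM and the highest control at 444.6 CPM. The libraries that stand apart held 201.2 to 272.9 CPM and the others 377.7 to 507 CPM. Its log2 fold change against the negative control was 0.22 ± 0.25, and 0.17 ± 0.10 without the 7 libraries.

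CD82 (ENSG00000085117; chromosome 11, 44564427 to 44620363), known as a metastasis suppressor that restrains cell movement, was even across the LDAH deletion at 48.5, 48.6, 55.1 and 46.0 CPM. In the negative control it ranged from 22.6 to 53.9 CPM with a median of 31.1, and the HPRT-targeted libraries stood at 49.7, 27.5, 42.6 and 21.9 CPM. The deletion libraries lay at the upper end of a wide control range that overlaps them. CD82 had a log2 fold change of 0.51 ± 0.25 against the negative control and 0.53 ± 0.22 without the 7 libraries, and 0.48 ± 0.29 and 0.14 ± 0.28 against the HPRT-targeted libraries.

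CD151 (ENSG00000177697; chromosome 11, 832843 to 839831) holds laminin-binding integrins in the membrane. Its 3' end lies inside POLR2L on the opposite strand, and whether the counting used strand is not given in the sources used here, so its counts are uncertain. It stood at 216.2, 230.3, 310.8 and 166.2 CPM in the LDAH deletion, against 111.8 to 239.5 CPM with a median of 208.8 in the negative control. All libraries of set B that stand apart (95.1 to 166.2 CPM) were below all others (194.4 to 310.8 CPM). CD151 had a log2 fold change of 0.27 ± 0.25, and 0.21 ± 0.12 without the 7 libraries.

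**Figure D2:**
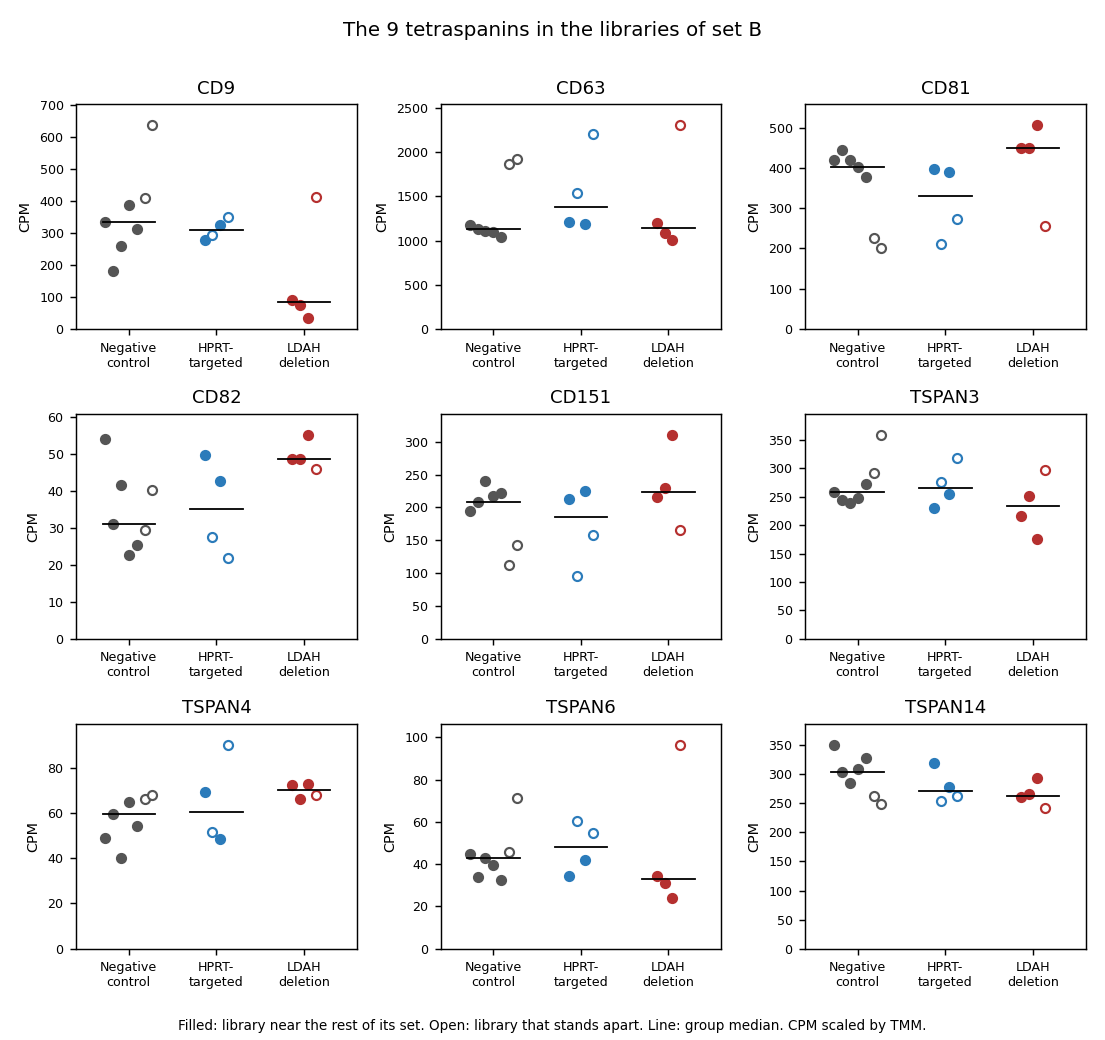
TMM-scaled CPM (linear axes from 0) of the 9 tetraspanins in the 15 libraries of set B, by group; open circles are the 5 libraries that stand apart and black lines are group medians. In the CD9 panel 3 deletion libraries lie below both control groups, the trait for which CD9 was chosen. The same 3 lie just above both in the CD81 panel, at 448.5 to 507 CPM against at most 444.6 CPM. The open circles are high for CD63 and low for CD81 and CD151 in every group.

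Of the members with other roles, TSPAN4 (ENSG00000214063; chromosome 11, 842808 to 867116), a component of migrasomes, lies next to CD151. It stood at 72.3, 66.3, 72.8 and 68.0 CPM in the LDAH deletion and at 40.1 to 68.0 CPM with a median of 59.7 in the negative control. The deletion libraries lay at the top of the control range and above it, overlapping it, and HPRT-targeted replicate 4 was higher still at 90.5 CPM. The log2 fold change against the negative control was 0.28 ± 0.19, and 0.39 ± 0.17 without the 7 libraries.

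TSPAN6 (ENSG00000000003; chromosome X, 100627109 to 100639991), a vesicle-associated tetraspanin, stood at 34.6, 30.9, 23.8 and 96.6 CPM in the LDAH deletion. The negative control ranged from 32.4 to 71.5 CPM with a median of 43.03. Replicates 2 and 3 were below and replicate 4 above all negative control libraries, so that the log2 fold change of 0.06 ± 0.33 turned to -0.58 without replicate 4 and to -0.39 ± 0.19 without the 7 libraries. As with CD9, TSPAN6 was high in LDAH deletion replicate 4.

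TSPAN3 (ENSG00000140391; chromosome 15, 77041404 to 77083984), an intracellular and surface tetraspanin, stood at 216.6, 251.7, 175.2 and 296.1 CPM in the deletion, against 238.1 to 359.1 CPM with a median of 259 in the negative control. Its log2 fold change was -0.22 ± 0.17, and -0.24 ± 0.12 without the 7 libraries. TSPAN14 (ENSG00000108219; chromosome 10, 80454166 to 80533123) belongs to the tetraspanins that escort ADAM10 to the surface. It stood at 260.6, 266.5, 294.5 and 242 CPM against 249.3 to 351.5 CPM with a median of 303.7, and its log2 fold change was -0.17 ± 0.14, and -0.21 ± 0.11 without the 7 libraries. It varied little between replicates of set B: its biological coefficient of variation was 20.4%, and 1.98% of genes were lower, while that of CD9 was 53.6%, with 73.9% of genes lower.

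Leaving CD9 aside, the other 8 tetraspanins had log2 fold changes from -0.22 to 0.51 in the LDAH deletion against the negative control. Counting CD9, 6 of the 9 were higher and 3 lower, with a median of 0.07, while the median over all 11769 genes was 0.01. Without the 7 libraries the balance turned to 4 higher and 5 lower, with a median of -0.02. These are counts of signs, since the contrast served to choose the genes.

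The comparisons that the choice did not use carry tests. HPRT targeting in set B asks whether a cut elsewhere in the genome moves these genes. For CD9 the log2 fold change against the negative control was -0.21 ± 0.48 (adjusted p = 0.999 in the quasi-likelihood test of edgeR over 11769 genes), with an interval from -1.23 to 0.81. The width leaves room for changes of either sign, and without the 7 libraries the value was 0.03. The 9 genes ranged from -0.21 to 0.20 with 4 higher and 5 lower, and 5 and 4 without the 7 libraries. TSPAN4 (0.18 ± 0.19) and CD63 (0.20 ± 0.26) had the smallest unadjusted p. Of the 9 genes, 0 passed the adjusted test and 0 had an unadjusted p under 0.05, where the shares over all genes were 0% and 1.75%. DESeq2 and limma voom also called 0 of the 9 in this and in each comparison below. The comparison uses the same negative control libraries as the LDAH deletion.

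In set A, CD9 had a higher mean CPM in every group than in set B. TMM factors were estimated within each set, so the levels of sets A and B were not put on a common scale. The SMAD3 deletion libraries stood at 859.1, 624.8, 817.3 and 1216 CPM. The negative control libraries of that set stood at 1197, 862.6, 931.1 and 891.4 CPM. Replicates 1 to 3 of the SMAD3 deletion lay below all 4 negative control libraries and replicate 4, which stands apart, above them. The numbers in the labels run from 10 to 13 for this deletion and from 26 to 33 for its controls, so here too handling that follows them cannot be told apart from the deletion. The log2 fold change was -0.14 ± 0.17 (interval from -0.50 to 0.22, adjusted p = 0.858, edgeR over 11467 genes), a difference within the spread between replicates. Without the 7 libraries it was -0.34 ± 0.11 (unadjusted p = 0.00733, adjusted p = 0.315, edgeR), short of the threshold after adjustment. CD9 ranked 266 by p among the 11574 genes of that fit. The 3 deletion libraries left lay below every control, the nearest at 859.1 against 862.6 CPM. How many of all genes do so was not counted.

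None of the other members passed the test in the SMAD3 deletion. Log2 fold changes of the 9 genes ran from -0.15 to 0.35, 4 higher and 5 lower, with a median of -0.02. TSPAN4 was at 0.31 ± 0.16 (adjusted p = 0.734, edgeR) and TSPAN6 at 0.35 ± 0.21 (adjusted p = 0.759, edgeR), the smallest unadjusted p of the 9. Of the 9, 0 passed the adjusted test and 0 an unadjusted p of 0.05, against 0% and 6.78% of all genes. Without the 7 libraries, 0.00864% of genes passed the adjusted test and again 0 of the 9.

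For HPRT targeting in set A, CD9 stood at 1050, 1089, 1010 and 1088 CPM, a narrow group inside the range of the negative control. Its log2 fold change was 0.13 ± 0.17 (adjusted p = 0.988, edgeR). CD63, at 2444, 1981, 2263 and 1904 CPM against 1927, 1736, 1593 and 1761 CPM, had 3 of 4 HPRT-targeted libraries above every negative control library. Its log2 fold change was 0.29 ± 0.16 (unadjusted p = 0.0955, adjusted p = 0.988, edgeR) and did not pass. TSPAN4 was at 0.22 ± 0.17, and the 9 genes ran from -0.13 to 0.29, 7 higher and 2 lower. Again 0 of the 9 passed either threshold, where 0% of genes passed the adjusted and 2.24% the unadjusted one. Leaving out the 7 libraries, 0.00864% of genes passed the adjusted test and 0 of the 9.

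**Figure D3:**
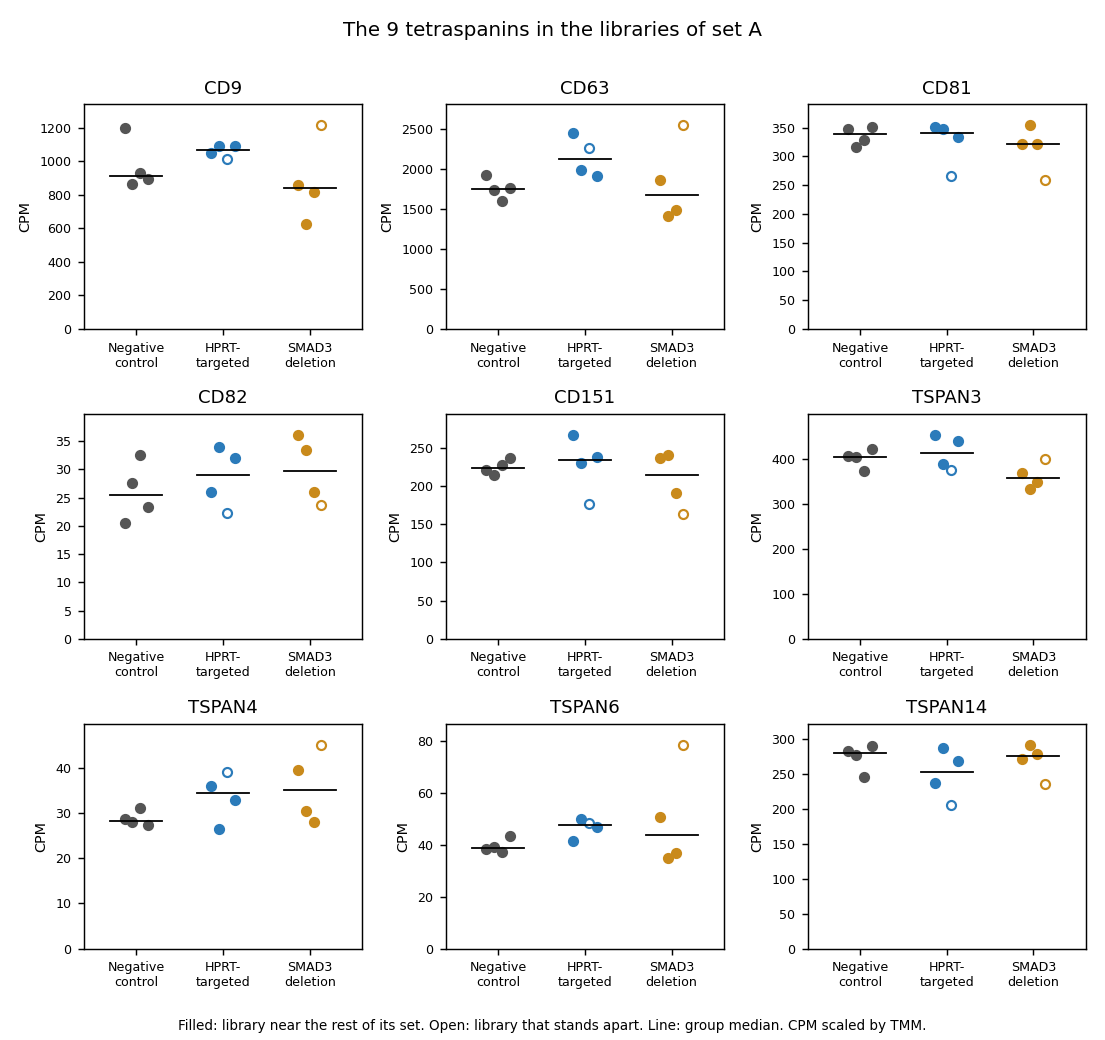
TMM-scaled CPM (linear axes from 0) of the 9 tetraspanins in the 12 libraries of set A, by group; open circles are the 2 libraries that stand apart and black lines are group medians. SMAD3 deletion replicates 1 to 3 lie at 624.8 to 859.1 CPM for CD9, below the 4 negative control libraries at 862.6 to 1197 CPM.

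The SMAD3 deletion was also set against the HPRT-targeted libraries, which share the genome cut. CD9 was at a log2 fold change of -0.27 ± 0.17 (adjusted p = 0.899, edgeR) and TSPAN3 at -0.19 ± 0.10 (adjusted p = 0.862, edgeR), which had the smallest p of the 9. CD63 was at -0.24 ± 0.16. All 9 lay between -0.27 and 0.11, with 0 past either threshold, where 0% and 5.83% of all genes passed. With the 7 libraries left out, 0.475% of genes passed the adjusted test. In that fit CD9 was at -0.49 ± 0.12 (adjusted p = 0.0678, edgeR), CD63 at -0.42 ± 0.11 (adjusted p = 0.0857, edgeR) and TSPAN3 at -0.30 ± 0.09 (adjusted p = 0.14, edgeR). None of these 3 passed the threshold, and with all libraries their adjusted p was 0.899, 0.922 and 0.862 (edgeR).

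When HPRT targeting was fitted over sets A and B together with a term for the set, CD9 was at -0.06 ± 0.17 (adjusted p = 0.960, edgeR). CD63 was at 0.24 ± 0.14 (adjusted p = 0.937, edgeR), with 0.19 ± 0.06 without the 7 libraries (adjusted p = 0.549, edgeR), and TSPAN4 at 0.19 ± 0.13. Of the 9 genes 0 passed either threshold, against 0% and 3.19% of 11836 genes, and without the 7 libraries 0.00825% of genes passed the adjusted test. The difference of the HPRT effect between the sets was -0.33 ± 0.33 for CD9 (adjusted p = 1, edgeR) and -0.16 ± 0.33 for CD151. Again 0 of the 9 passed either threshold, with 0% and 1.12% of all genes. The comparisons with a negative control share those libraries with each other.

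**Figure D4:**
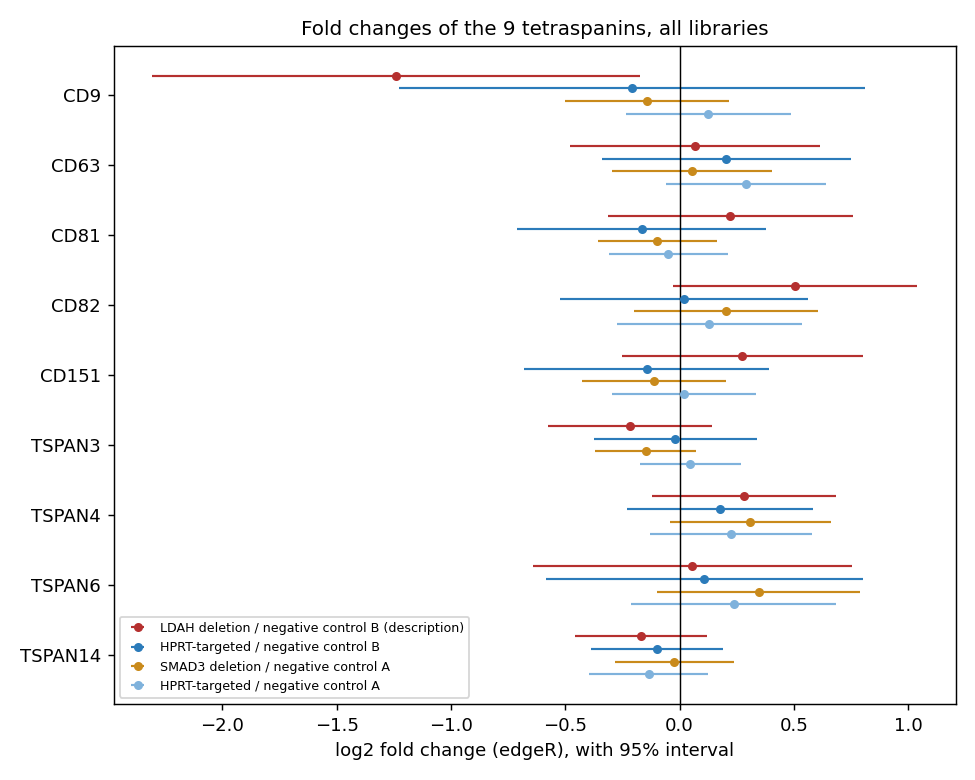
Log2 fold changes from edgeR with 95% intervals for the 9 tetraspanins (rows) in 4 comparisons (colours), all libraries included. The LDAH deletion interval of CD9 runs from -2.31 to -0.17. It is a description, since that contrast chose the gene, and nothing is read from its position below 0. The 9 intervals of each tested comparison all include 0.

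The level of these genes differed between sets as well as within them. QuantSeq reads come from 3' ends and do not scale with transcript length, so CPM compares transcript levels between genes only as far as 3' ends are captured alike. On that scale CD63 was the most abundant of the 9, with a mean of 1628 CPM over the 27 libraries, followed by CD9 (593.8), CD81 (345.2), TSPAN3 (319.9), TSPAN14 (275.6), CD151 (207.1), TSPAN4 (49.5), TSPAN6 (45.7) and CD82 (34.1). The place of CD9 in this order depends on the set. In the negative control, mean CD9 and CD81 were 970.5 and 335.9 CPM in set A and 361.5 and 356 CPM in set B. Across libraries CD9, CD81, TSPAN3, TSPAN14 and CD151 overlap, as do TSPAN4, TSPAN6 and CD82.

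Ordered by group mean, CD9 was highest in the HPRT-targeted libraries of set A (1059 ± 37.5 CPM, n = 4). It was followed by the negative control (970.5 ± 154) and the SMAD3 deletion (879.2 ± 246) of that set, and these 3 groups overlap. The negative control (361.5 ± 145, n = 7) and HPRT-targeted libraries (313 ± 32.4, n = 4) of set B overlap each other, and the LDAH deletion was lowest (153.4 ± 176, n = 4). Set and CD9 level go together: 1 control library of set B, negative control replicate 7 at 639.4 CPM, reached the range of set A. TSPAN3 was likewise higher in set A (331.9 to 453.7 CPM) than in set B (175.2 to 359.1 CPM), and TSPAN4 was lower (26.4 to 45.2 against 40.1 to 90.5 CPM). The sets differ in every group and their handling cannot be told apart from their level. Their CPM was also scaled within each set.

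The 5 genes whose pattern over all libraries was most like that of CD9 were MYL12B, NDUFB3, SEC61B, TMSB4X and MGST3, ranked by Pearson's r of log2 CPM centred on each set over 27 libraries, among 8468 genes with a mean of at least 10 CPM. They encode a myosin light chain, a subunit of respiratory complex I, a subunit of the protein channel of the endoplasmic reticulum, thymosin beta 4 and a microsomal glutathione transferase. Their r ran from 0.933 to 0.948, and from 0.783 to 0.815 over the 23 libraries outside the LDAH deletion. Without LDAH deletion replicates 2 and 3, the libraries farthest from the median of CD9, r ran from 0.83 to 0.874. Over the 20 libraries that do not stand apart, which include LDAH deletion replicates 1 to 3, r ran from 0.931 to 0.965. Other genes came first there: these 5 ranked 15, 18, 12, 28 and 6. By Spearman's rho over all libraries they ranked 5, 13, 11, 2 and 3. The points share library, depth and set, and r is given as a description.

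TMSB4X spanned the widest range of the 5 in the LDAH deletion. It ranged from 198.7 to 4952 CPM over those 4 libraries, lowest in replicate 3 and highest in replicate 4, as CD9 was. The negative control of set B ranged from 1890 to 4868 CPM. NDUFB3 ranged from 7.66 to 97.2 CPM in the deletion and from 57.8 to 146.6 CPM in the negative control. MYL12B ranged from 216.9 to 599.9 CPM, against 455.3 to 785.5 CPM. In all 5 genes, as in CD9, LDAH deletion replicates 1 to 3 fell below every control library of set B. The 5 were ranked by r with CD9 over these same libraries, so this follows in part from the choice and nothing is read from it. Replicate 4 lay within the negative control range or above it. Of the other members, TSPAN3 (r = 0.775), TSPAN6 (0.675) and CD63 (0.553) varied in the same direction as CD9, and CD81 (-0.642), CD151 (-0.555) and CD82 (-0.439) in the opposite one, while TSPAN4 (-0.12) and TSPAN14 (-0.10) were near 0. Without the LDAH deletion these were 0.698, 0.547 and 0.541, then -0.531, -0.359 and -0.229, then 0.202 and -0.262. With the 7 libraries left out, TSPAN4 was at -0.482, TSPAN14 at 0.375 and CD63 at 0.313, so the values of these 3 depend on the libraries that stand apart.

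**Figure D5:**
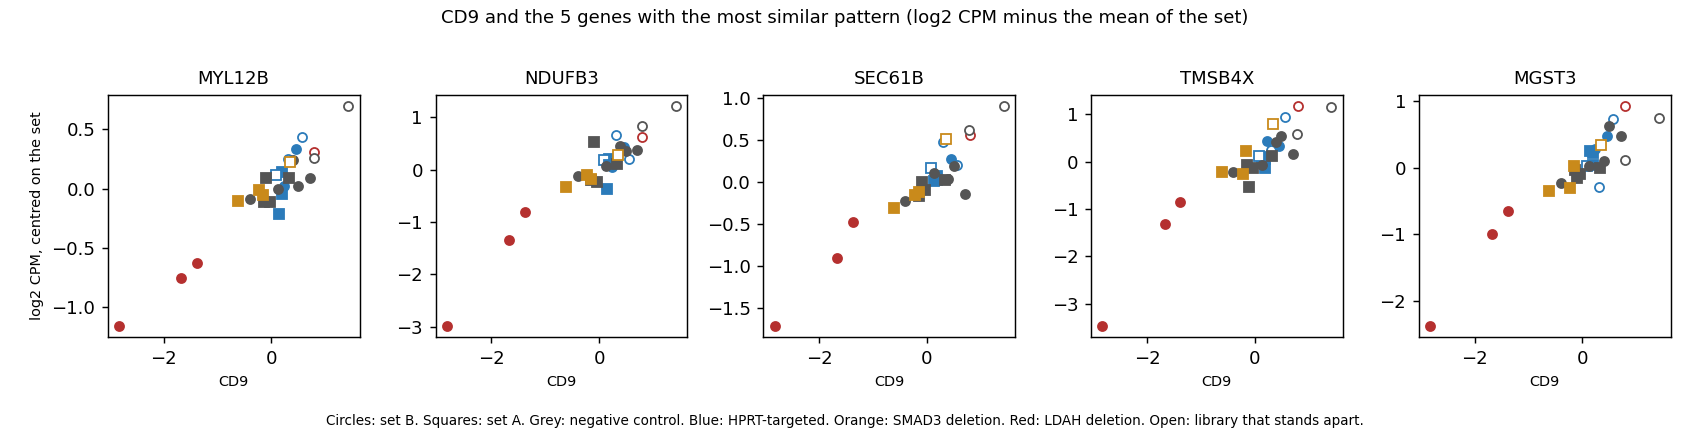
Log2 CPM of 5 genes (vertical) against that of CD9 (horizontal), each minus the mean of its set, in 27 libraries; circles are set B, squares set A, open symbols the 7 libraries that stand apart and red symbols the LDAH deletion. The 3 red filled circles at the lower left are LDAH deletion replicates 1 to 3, and r over all libraries ran from 0.933 to 0.948.

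Beyond the 9, the table held 17 more tetraspanins, of which 7 reached a mean of 10 CPM. TSPAN5 (257 CPM over 27 libraries), TSPAN17 (54.04) and TSPAN15 (23.9) bind ADAM10 as TSPAN14 does. TSPAN9 (87.5) is abundant in platelets, TSPAN18 (29.1) acts with the calcium channel ORAI1 in endothelium, and TSPAN11 (51.9) and TSPAN31 (23.3) complete the group. In the LDAH deletion against the negative control TSPAN5 was at a log2 fold change of -0.12 ± 0.17, TSPAN9 at 0.38 ± 0.20 and TSPAN11 at 0.50 ± 0.29. TSPAN15 was at -0.39 ± 0.35, TSPAN17 at -0.09 ± 0.30, TSPAN18 at -0.05 ± 0.54 and TSPAN31 at -0.24 ± 0.39. Leaving out the 7 libraries, TSPAN15 was at -0.69 ± 0.27, TSPAN11 at 0.32 ± 0.24, TSPAN18 at -0.13 ± 0.22 and TSPAN5 at -0.02 ± 0.11. Against the HPRT-targeted libraries TSPAN11 was at 0.91 ± 0.33 with all libraries and 0.28 ± 0.30 without the 7, and TSPAN15 at -0.40 ± 0.39 and -0.94 ± 0.32. Over the 19 family members fitted in set B, 10 were higher and 9 lower, with a median of 0.06, beside 0.01 for all genes, and without the 7 libraries 8 were higher and 11 lower. In the SMAD3 deletion against the negative control 11 were higher and 8 lower, which turned to 8 and 12 of 20 without the 7 libraries. In that SMAD3 deletion comparison with all libraries, 0 of 19 passed the adjusted or an unadjusted p of 0.05 in edgeR. Of all genes, 0% and 6.78% did.

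Partners of tetraspanins were described from 3 lists, of 30 membrane partners, 10 ADAM10 substrates and 21 vesicle-sorting genes. In the LDAH deletion against the negative control 17 of 25 fitted partners, 6 of 8 substrates and 13 of 20 sorting genes were higher, as were 51.7% of all genes. With the 7 libraries left out, these were 19 of 26, 3 of 8 and 11 of 20, and 49.9% of all genes, so the substrates turned. In the SMAD3 deletion against the negative control 9, 3 and 10 were higher, and 50.3% of all genes. Leaving out the 7 libraries, these were 16, 5 and 7, so that partners and substrates turned from mostly lower to mostly higher. With all libraries 0 of their genes passed the adjusted test of edgeR in any comparison. An unadjusted p under 0.05 was met by 1 of 8 substrates in the SMAD3 deletion against the negative control (6.78% of all genes) and by 2 of 20 sorting genes in the SMAD3 deletion against the HPRT-targeted libraries (5.83%). It was met by 1 of 25 partners and 1 of 8 substrates in HPRT targeting over both sets (3.19%), and by 0 genes of the lists in HPRT targeting of either set alone or in the difference. The genes named next have, in each tested comparison, the 2 smallest unadjusted p among those with a mean of at least 50 CPM. CD44, the hyaluronan receptor, was at 0.26 ± 0.14 in HPRT targeting of set B, and VPS4B, an ATPase of membrane scission, at -0.16 ± 0.14. In the SMAD3 deletion RAB27A, which docks vesicles at the membrane, was at -0.21 ± 0.10, and CD46, a complement regulator, at 0.28 ± 0.14, both with an adjusted p of 0.734. In HPRT targeting of set A ANXA2, an annexin of the inner membrane face, was at 0.15 ± 0.10 and the integrin ITGAV at 0.14 ± 0.11. In the SMAD3 deletion against the HPRT-targeted libraries ANXA2 was at -0.28 ± 0.10 (unadjusted p = 0.0138, adjusted p = 0.746, edgeR) and ITGAV at -0.22 ± 0.11 (adjusted p = 0.843, edgeR). Over both sets CD44 was at 0.19 ± 0.08 (unadjusted p = 0.0348, adjusted p = 0.937, edgeR) and ANXA2 at 0.14 ± 0.08. For the difference of the HPRT effect the integrin ITGB3 was at 0.48 ± 0.41 and the protease inhibitor TIMP1 at -0.22 ± 0.21.

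CDH5, the cadherin of endothelial junctions and a substrate of ADAM10, is named after its values were seen. It ranged from 112.5 to 215.5 CPM in the LDAH deletion and from 127.4 to 338.4 CPM in the negative control. Its log2 fold change was -0.71 ± 0.35 with all libraries and -0.80 ± 0.15 without the 7, and -0.59 ± 0.38 and -1.02 ± 0.18 against the HPRT-targeted libraries. As with CD9 these are descriptions. CDH5 was the 1 gene of the 3 lists among those called in the LDAH deletion comparisons without the 7 libraries. It was 1 of 26 fitted partners and 1 of 8 substrates. Of all genes, 1.74% passed against the negative control and 0.634% against the HPRT-targeted libraries. Nothing is read from the call, since CDH5 was named on that contrast. CDH5 is also among the endothelial markers, whose sum was lower in the libraries that stand apart (2134 to 2495 CPM) than in the others (2921 to 4357 CPM). In the SMAD3 deletion against the HPRT-targeted libraries the membrane protease MMP14 was the 1 gene of the lists to pass without the 7 libraries. It was 1 of 25 fitted partners, where 0.475% of all genes passed, and stood at 0.62 ± 0.14 (adjusted p = 0.0482, edgeR). With all libraries it did not pass, at 0.49 ± 0.30 (adjusted p = 0.899, edgeR).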

How the data were processed

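The authors deposited integer read counts per gene (14008 genes, 27 libraries) from QuantSeq 3' libraries, read for 86 cycles per the labels. The submitters' processing notes name hg38 and edgeR 3.24.3; which aligner and counting program were used, and whether with strand, is not given in the sources used here. Gene IDs matched current symbols for 13949 genes and GENCODE 29 alone for 57; 2 had none. Positions are from GENCODE 29 (GRCh38).

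The counts were analysed in R 4.3.3 with edgeR 4.0.16: TMM scaling, filterByExpr by group, a quasi-likelihood fit tested on both sides, with p-values adjusted by Benjamini-Hochberg over all genes fitted and called at 0.05. Fits held the 12 libraries of set A, the 15 of set B, or the 19 control libraries of both. The CPM of each library used the TMM factors from the fit of its own set. SE is the log2 fold change divided by the root of F. Correlations used log2 CPM with a prior count of 2. A count of 0 allows up to 0.387 to 0.875 CPM (3 counts), counting error only. Between libraries of 1 group the chi-square of the counts was 3.03 to 78.9 times its degrees of freedom, and none is a copy. Libraries stand apart where their median correlation is over 3 scaled median absolute deviations below that of the set. The test code was checked on simulated data.

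The members, lists and alternatives were chosen with earlier results of these data known. Named are the 9 members, the 3 targets, other tetraspanins with a mean of at least 10 CPM, partner-list genes with a mean of at least 50 CPM that passed or, failing that, the 2 of smallest unadjusted p in a tested comparison, and the 5 genes most like CD9. Alternatives were DESeq2 1.42.0, limma 3.58.1 voom with quality weights, DESeq2's size factors, other filters, fewer groups in the fit, leaving out the 7 libraries, and leaving out each library in turn. No count column was left out.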

Additional observations from a re-analysis of the deposited data

Results flagged for a closer look

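In 4 of 54 sets of values the highest library lay far from the others by Dixon's criterion. A set is 1 member in a group of 4 or 7 libraries. Chance meets the criterion in about 1 in 20 independent sets. These sets share libraries, and the deletion values of CD9 served to choose it, so nothing is read from the count. All 4 were in libraries that stand apart, and all but 1 in LDAH deletion replicate 4. How many of all genes meet the criterion in these libraries was not counted. In LDAH deletion replicate 4, CD9 was at 414.4 CPM with the next library at 91.4 CPM, a gap of 0.848 of the range. CD63 in the same library was at 2309 CPM with the next at 1196 CPM (0.852), and TSPAN6 at 96.6 CPM with the next at 34.6 CPM (0.853). TSPAN6 in negative control replicate 7 of set B was at 71.5 CPM with the next at 46.0 CPM (0.653). Ribosomal protein genes took 17.3% and 15.8% of the counts of these libraries, and the part of these values in the gaps was not tested.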

How the results depend on the processing

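No paired analysis was possible because the labels pair no libraries. In the LDAH deletion, TSPAN6 (0.06 to -0.39) and CD63 (0.07 to -0.02) changed sign against the negative control without the 7 libraries, and CD9 grew in size from -1.24 to -2.16, and from -1.03 to -2.20 against the HPRT-targeted libraries. In the SMAD3 deletion CD9 went from -0.14 to -0.34 and CD63 changed sign (0.05 to -0.15), as did TSPAN6 against the HPRT-targeted libraries (0.11 to -0.17) and CD151 in HPRT targeting of set B (-0.14 to 0.01). CD9 under HPRT targeting turned to 0.10 with voom and 0.033 without the 7 libraries in set B, and to 0.16 with voom and 0.10 without the 7 over both sets. Leaving out single libraries, it ran from -0.12 to 0.050 over both sets (highest without negative control replicate 7 of set B). In HPRT targeting of set B, TSPAN4 ran from -0.025 to 0.29 and CD63 from -0.024 to 0.32, both lowest without HPRT-targeted replicate 4. CD151 ran from -0.31 to 0.036 for the difference between sets. The cause was not tested.

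Genes passing in the LDAH deletion against the negative control numbered 0 in edgeR, 14 in DESeq2, 212 without the 7 libraries (1 of the 9 tetraspanins) and 0 to 3 leaving out single libraries (0 to 1 of the 9), the highest without LDAH deletion replicate 4. Against the HPRT-targeted libraries, 77 passed without the 7 (1 of the 9). The SMAD3 deletion gave 14 in DESeq2, 2 with voom and 1 without the 7 against the negative control, and 17, 5 and 55 against the HPRT-targeted libraries, with 0 to 2 leaving out single libraries (highest without HPRT-targeted replicate 3). HPRT targeting gave 1 in DESeq2 and 1 without the 7 in set A, 1, 6 with voom and 1 over both sets, and 3, 1 without the 7 and 0 to 1 leaving out single libraries for the difference. Where an interval is given with a fold change, it holds the differences compatible with the data at this depth and replication. What size of difference could be detected was not tested.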

Other observations

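Several members differed in level between the libraries that stand apart and the rest of the set. In set B the 5 libraries held 46.0 to 96.6 CPM of TSPAN6, above the 23.8 to 44.8 CPM of the other 10, and 242 to 263.4 CPM of TSPAN14, against 260.6 to 351.5 CPM, which overlap. In set A the 2 libraries held 258.7 to 266.7 CPM of CD81, against 315.7 to 354.9 CPM in the other 10, and 162.7 to 176.7 CPM of CD151, against 191.1 to 267.2 CPM. There CD63 (2263 to 2547 against 1404 to 2444 CPM) and TSPAN6 (48.2 to 78.5 against 35.1 to 50.8 CPM) overlapped. The summed level of 18 endothelial markers was lower in them as well, and what moves these levels together was not tested.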
